A study of Mus musculus with 8 samples.

Results

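The paws of arthritic mice that had received the peptide MLIF were compared with the paws of control mice that had received neither collagen nor MLIF, to show what still differed from the untreated baseline after treatment. These are 4 of the 8 arrays of the study, 2 labelled as arthritic with MLIF (CIA+MLIF) and 2 labelled as adjuvant only (adjuvant), chosen by their labels. All mice were DBA/1J males, a strain prone to autoimmune arthritis, aged 8 to 10 weeks, in groups of 8. The CIA+MLIF mice were immunised with 150 µg of type II collagen from chicken, emulsified in complete Freund adjuvant, and boosted in incomplete adjuvant at week 3, and were given MLIF into the nose weekly from before the first collagen injection. The adjuvant mice received the same adjuvants without collagen. The other 4 arrays hold arthritic mice without MLIF (CIA) and adjuvant mice with MLIF (adjuvant+MLIF), 2 of each. All groups thus share the adjuvants. Whole excised paws were homogenised, so each value is a mixture of joint, bone, muscle, blood and whatever skin the paws carried. In such a mixture, fewer cells of a type and less RNA per cell cannot be told apart. The sources differ on when paws were taken: 4 weeks past the booster in the labels, ahead of it in the series text. Replicates are labelled biological, but whether an array held a single mouse or a pool is not stated, so every p-value reflects only how far these arrays differ.

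Collagen-induced arthritis is an immune attack on joint collagen, in which neutrophils and macrophages enter the joint, fibroblasts and osteoclasts break down cartilage and bone, and muscle wastes. MLIF, the monocyte locomotion inhibitory factor, is an anti-inflammatory pentapeptide made by the amoeba Entamoeba histolytica. The outer layer of a paw is epidermis. Its basal cells make the keratins Krt5 and Krt14, and cells that leave the basal layer switch to Krt1 and Krt10, tie themselves together with desmosomes, and cross-link loricrin and related proteins into a cornified envelope sealed by lipids. Hairs and nails are built from other, harder keratins, which are held together by keratin-associated proteins, only some of which are sulphur-rich. The sheath that surrounds a growing hair has keratins of its own.

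In CIA+MLIF paws many genes of this outer layer were far above the adjuvant level. Few genes of the lists for inflammation, bone and muscle passed the test, and few of all probe sets did (1.33%). Of 28944 probe sets (the array's units of measurement, each a set of probes for 1 transcript), 259 were higher (0.895%) and 127 lower (0.439%) in CIA+MLIF than in adjuvant, together 1.33%. The higher ones named 236 genes, led by epidermal and hair keratins, and the lower ones named 7. The test was limma's moderated test with Benjamini-Hochberg adjustment over all probe sets, and a probe set was called at an adjusted p under 0.05. Values are log2 signals after each array was centred on its median, so that a difference of 1 is a 2-fold change. Against CIA, the arthritic mice without MLIF, 6984 probe sets (24.1%) passed, 3479 higher and 3505 (12.1%) lower in CIA+MLIF. Against adjuvant+MLIF, 304 (1.05%) were higher and 36 (0.124%) lower. These comparisons share the CIA+MLIF arrays, so their values are given side by side and are not independent.

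Precision rests on the number of arrays. Replicates correlated across probe sets at r of 0.988 to 0.999, and log2 changes had a standard error of 0.132 in the median. The adjuvant+MLIF arrays were the closest pair (SD of their difference 0.0936, against 0.207 to 0.324 in the other groups), and CIA replicate 1 had a deposited median of 6.66, against 7.07 to 7.10 on the other 7 arrays. Without centring, the median change over all probe sets between CIA+MLIF and CIA was therefore 0.24 in place of 0, and 3315 probe sets were higher and 942 lower (77.9% of calls higher, against 49.8% with centring). For CIA+MLIF against adjuvant the median was -0.02 with centring and -0.01 without it. That comparison then had 199 higher and 42 lower calls, and higher calls were 82.6% of all calls in place of 67.1%. Markers of muscle, cartilage, bone, fibroblasts and macrophages were well above the array's control entries (median 6.29 on the adjuvant arrays) in every group. The 5 measured keratinocyte markers averaged 6.06 and 5.97 on the adjuvant arrays, 6.10 and 6.09 on adjuvant+MLIF, 12.27 and 12.08 on CIA, and 11.05 and 11.20 on CIA+MLIF, and 3 of them lay below the control entries on the adjuvant arrays. How much skin the paws carried is not stated in the labels, and its part in the rises described here was not tested.

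**Figure D1:**
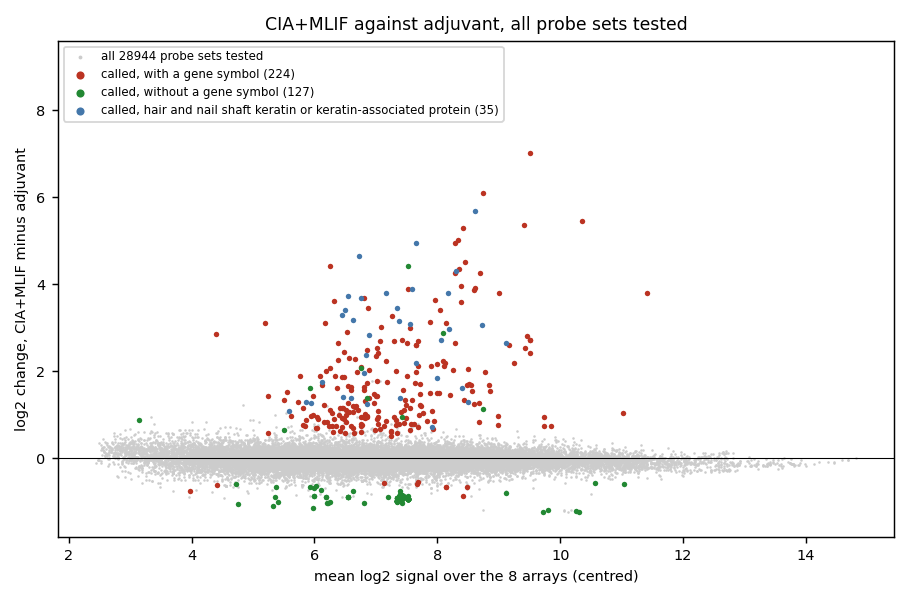
Each point is 1 of 28944 probe sets, placed by its mean log2 signal over the 8 arrays (horizontal axis) and its log2 change between the means of 2 CIA+MLIF and 2 adjuvant arrays (vertical axis); colours mark the called ones. The 259 rises reach 7.02, while the 127 falls end at -1.24 and 118 of them have no gene symbol.

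The 12 largest rises among named genes were Krt1, Krt24, Krtap7-1, Hrnr, Krt10, Krt9, Krt2, Lor, Krtap6-2, Krtap13, Calm4 and Krtap8-1. RefSeq promoter entries (GRCm38.p6) were found for 10 of them, all but Krt1 and Krtap7-1. The core TATA letters TATAAA lay on the gene's strand within the 100 bases before the start in 6 of the 10, against 3.80% of 32851 promoters (5.56% on either strand). The AP-1 letters TGANTCA, searched on both strands, lay in that of Lor alone, against 2.73% of promoters. These 6 stretches are shown because they belong to genes with the largest rises and share these letters. Each runs 5′ to 3′ on the gene's strand and ends at the base before the start, with the TATA letters in capitals. A match is a description of letters and not a site shown to be used.
Hrnr (chr3:93319649-93319748, plus strand): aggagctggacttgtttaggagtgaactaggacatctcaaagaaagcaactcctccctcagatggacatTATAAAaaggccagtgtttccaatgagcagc
Krt10 (chr11:99389365-99389464, minus strand): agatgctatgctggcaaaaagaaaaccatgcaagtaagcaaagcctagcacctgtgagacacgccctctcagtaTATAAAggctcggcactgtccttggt
Lor (chr3:92083143-92083242, minus strand): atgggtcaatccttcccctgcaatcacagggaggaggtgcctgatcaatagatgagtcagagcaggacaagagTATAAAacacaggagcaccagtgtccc
Krtap6-2 (chr16:89420112-89420211, minus strand): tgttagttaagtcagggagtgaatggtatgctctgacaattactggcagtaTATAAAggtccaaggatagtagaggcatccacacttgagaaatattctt
Krtap13 (chr16:88751629-88751728, minus strand): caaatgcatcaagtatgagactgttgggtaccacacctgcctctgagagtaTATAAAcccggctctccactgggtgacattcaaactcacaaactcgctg
Krtap8-1 (chr16:89487953-89488052, minus strand): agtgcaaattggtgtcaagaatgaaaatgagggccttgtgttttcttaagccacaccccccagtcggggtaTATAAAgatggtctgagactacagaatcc

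**Figure D2:**
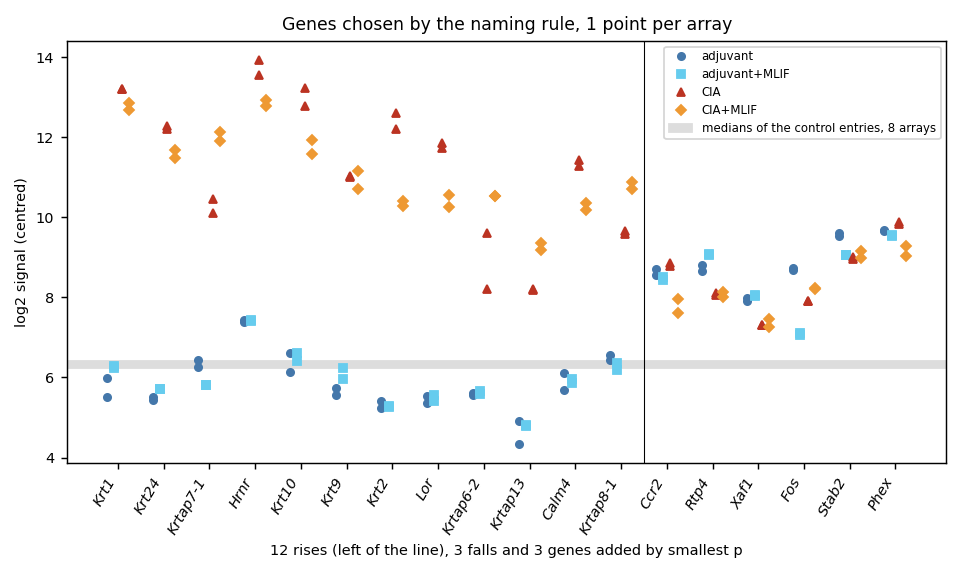
Log2 signals (vertical axis) of the genes chosen by the naming rule, 1 point per array, with the range of the 8 arrays' control-entry medians in grey. The 12 rises lie on both CIA+MLIF arrays above both adjuvant and both adjuvant+MLIF arrays, and the 4 keratin-associated protein genes lie there above both CIA arrays too.

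Keratins of the outer epidermal layers made the largest differences. Krt1, which pairs with Krt10 in cells that have left the basal layer, read 5.51 and 5.99 on the adjuvant arrays, 6.29 and 6.24 on adjuvant+MLIF, 13.20 and 13.20 on CIA, and 12.69 and 12.86 on CIA+MLIF. It was thus 7.02 higher in CIA+MLIF than in adjuvant (95% interval 6.67 to 7.38, adjusted p = 2.30e-07), and its change from CIA was -0.42 (adjusted p = 0.0855). Adjuvant levels of Krt1 and of 157 of the 259 higher probe sets lay below the control-entry median, where a signal has little meaning. Where the CIA+MLIF level was well above it, the size of such a rise is less certain than its direction. Some genes stayed below it in CIA+MLIF too, such as Il1f9 (6.12 and 6.24, beside control-entry medians of 6.32 and 6.30). For these the direction is uncertain as well. Krt10 read 6.14 and 6.62 on adjuvant, 13.24 and 12.78 on CIA, and 11.57 and 11.93 on CIA+MLIF, a rise of 5.37 over adjuvant (adjusted p = 2.41e-06) and a level 1.26 below CIA (-1.26, adjusted p = 0.00324). Krt24, a further epidermal keratin, was 6.10 above adjuvant and at -0.65 from CIA (adjusted p = 7.48e-08 and 0.00327). Adjuvant and CIA+MLIF arrays did not overlap for any of the 386 called probe sets. A call by a test on these same arrays makes that likely, so it adds no support. All 12 genes named above were also called against adjuvant+MLIF, with changes of 4.36 to 6.51.

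Krt9 and Krt2 stood differently beside CIA. Krt9, the keratin of palm and sole skin, read 5.55 and 5.73 on adjuvant, a mean of 11.01 on CIA, and 10.71 and 11.15 on CIA+MLIF. Its rise over adjuvant was 5.29 (adjusted p = 5.86e-07), and its change from CIA was -0.08 (95% interval -0.46 to 0.29, adjusted p = 0.745), or 0.14 without centring and 0.12 after quantile normalization. Krt2, a keratin of the upper layers, read 5.42 and 5.23 on adjuvant, 12.60 and 12.21 on CIA, and 10.29 and 10.41 on CIA+MLIF, a rise of 5.02 over adjuvant and a change of -2.06 from CIA (adjusted p = 4.59e-07 and 2.85e-05). Of 8 measured keratins of suprabasal and palm or sole epidermis, 6 were higher than adjuvant, with Krt80 at 0.52 (adjusted p = 0.0944) and Krt77 at -0.07 (adjusted p = 0.968). This and the other gene families below were set by symbol after the values had been seen, so their counts describe these arrays and test nothing further.

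The list of suprabasal and cornified envelope genes had 17 of 20 measured members higher than adjuvant and none lower, with a median change of 2.74 beside -0.02 over all probe sets. 18 of the 20 were lower than in CIA, where the median change was -1.11. Loricrin (Lor), the main protein of the envelope, read 5.54 and 5.36 on adjuvant, 11.86 and 11.72 on CIA, and 10.56 and 10.25 on CIA+MLIF, which put it 4.95 above adjuvant and at -1.39 from CIA (adjusted p = 4.36e-07 and 0.000204). Hornerin (Hrnr) read 7.38 and 7.44 on adjuvant and 12.78 and 12.94 on CIA+MLIF, a rise of 5.45 (adjusted p = 3.70e-07). The retroviral-like skin protease Asprv1 rose by 3.81, and the envelope cross-linking enzymes Tgm3 and Tgm1 by 1.70 and 1.33. The 3 members that were not called were Flg2 at 0.79, Ivl at 0.22 and Sprr4 at 0.09 (adjusted p of 0.173, 0.746 and 0.926). Flg2, a filaggrin-like protein of the horny layer, read 5.05 and 4.64 on adjuvant, 8.22 and 8.62 on CIA, and 5.45 and 5.82 on CIA+MLIF. Both CIA+MLIF arrays were thus above both adjuvant arrays and far below both CIA arrays. The adjuvant and CIA+MLIF readings all lay below the control-entry medians, so the order of these groups is uncertain. Without CIA+MLIF replicate 1, adjuvant replicate 1 or adjuvant replicate 2 the list had 15 calls.

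Among late cornified envelope genes, a cluster of small proteins added last to the envelope, 12 of 19 were higher than adjuvant and none lower, all of the Lce1 group except Lce6a. Lce1c read 6.48 and 6.13 on adjuvant, 11.79 and 11.59 on CIA, and 10.10 and 10.26 on CIA+MLIF, 3.88 above adjuvant and at -1.51 from CIA (adjusted p = 1.57e-06 and 0.000149). 13 of the 19 were lower than in CIA. Of 13 small proline-rich protein genes, which are induced in stressed epithelium, only Sprr1b was called, 1.98 above adjuvant (adjusted p = 0.000396), and 4 had an unadjusted p under 0.05.

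Genes of the basal layer, the growing layer that rests on the basement membrane, were higher for 6 of 13 list members and lower for none, with a median change of 0.61. Krt5 read 6.72 and 6.15 on adjuvant, 11.65 and 11.61 on CIA, and 10.51 and 10.88 on CIA+MLIF, a rise of 4.26 (adjusted p = 5.28e-06) and a change from CIA of -0.93 (adjusted p = 0.00818, and 0.0648 without centring). Its partner Krt14 rose by 3.95. Krt15, a basal keratin also known from hair follicle stem cells, was different. It read 6.19 and 6.40 on adjuvant, 9.23 and 8.96 on CIA, and 6.41 and 7.01 on CIA+MLIF, a change of 0.42 from adjuvant (adjusted p = 0.678) and of -2.38 from CIA (adjusted p = 6.10e-05). The hemidesmosome collagen Col17a1 was 1.21 above adjuvant and at -0.19 from CIA (adjusted p = 0.00166 and 0.322).

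Desmosomes, the junctions that hold epidermal cells together, had 10 of 15 genes higher than adjuvant and none lower. On the values as deposited 8 were higher, and after quantile normalization 9. Jup passed in neither (adjusted p = 0.412 and 0.0738), and Pkp3 did not pass on the values as deposited (0.0521). The calls of Jup and Dsg1b also depended on single arrays. Desmoplakin (Dsp), which anchors keratin to the junction, read 6.55 and 6.38 on adjuvant, 10.99 and 10.92 on CIA, and 10.44 and 10.31 on CIA+MLIF, a rise of 3.91 (adjusted p = 4.36e-07). Perp and Dsc3 rose by 3.59 and 3.02. The adherens junction protein E-cadherin (Cdh1), which is in none of the lists, rose by 0.92 (adjusted p = 0.00418). Of these junction genes 7 of 15 were lower than in CIA with centring and 3 without it.

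Hair and nail shaft genes were higher than adjuvant, and many of them were higher than in CIA as well. Of 13 keratins of hair and nail shafts, 10 were higher than adjuvant and none lower. Set against CIA, 8 of the 13 were higher and 2 lower, under each of the 3 scalings (centred, deposited and quantile-normalized). Krt84, a hard keratin, read 5.86 and 6.10 on adjuvant, 5.84 and 5.80 on adjuvant+MLIF, 8.15 and 8.13 on CIA, and 9.19 and 9.67 on CIA+MLIF. Both CIA+MLIF arrays were above both CIA arrays, with a change of 3.45 from adjuvant and 1.28 from CIA (adjusted p = 7.64e-06 and 0.000665). Krt33b, a keratin of the hair cortex, read 7.44 and 7.71 on adjuvant, 9.23 and 8.89 on CIA, and 10.45 and 10.83 on CIA+MLIF, 3.06 above adjuvant and 1.58 above CIA (adjusted p = 1.89e-05 and 0.000278). Krt87 and Krt31 were 1.57 and 1.37 above CIA. The calls of Krt86 and Krt34, with changes of 3.15 and 1.84 from adjuvant, were lost without single arrays (highest adjusted p of 0.119 without CIA+MLIF replicate 1 and of 0.0714 without CIA+MLIF replicate 2).

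The other 3 shaft keratins, Krt32, Krt82 and Krt40, did not pass against adjuvant. Krt32 and Krt82, known from the cuticle that covers the hair, changed by -0.03 and 0.13 from adjuvant (adjusted p = 0.976 and 0.926) and were lower than in CIA (-0.82 and -0.83, adjusted p = 0.000831 and 0.00752). Krt39 and Krt35, which are also known from the cuticle, were 1.76 and 1.25 above adjuvant (adjusted p = 0.000395 and 0.00286), and Krt39 was 0.96 above CIA (adjusted p = 0.00238). None of 9 root sheath keratins was called against adjuvant by limma, and none had an unadjusted p under 0.05, while 6 were lower than in CIA. Krt71, a keratin of the inner sheath, read 6.19 and 6.11 on adjuvant, 6.45 and 6.35 on adjuvant+MLIF, 9.28 and 9.06 on CIA, and 6.48 and 6.17 on CIA+MLIF. Krt25, its partner, read 5.38 and 5.36 on adjuvant, 8.28 and 8.18 on CIA, and 5.43 and 5.41 on CIA+MLIF. The CIA+MLIF and adjuvant arrays overlapped for Krt71 and lay side by side for Krt25, with changes from CIA of -2.85 and -2.81 (adjusted p = 4.07e-06 for both). Keratins of simple epithelia, which line glands and internal organs, had 0 of 6 calls and no unadjusted p under 0.05.

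The keratin-associated proteins divided in a similar way. Of 44 measured genes, 25 were higher than adjuvant (21 on the values as deposited) and none lower. Against CIA, 15 were higher and 12 lower (14 and 6 without centring). Among the 25 called against adjuvant, the calls of Krtap4-1, Krtap16-3 and Krtap19-4 depended on single arrays. Krtap16-3, Krtap19-4 and Krtap19-2 did not pass against adjuvant on the values as deposited (adjusted p = 0.16, 0.403 and 0.0779). The list of hair follicle keratins and associated proteins, which overlaps both families, had 9 of 17 higher than adjuvant and 6 higher and 6 lower than in CIA. All measured members of the Krtap1, Krtap4, Krtap6 and Krtap13 groups (3, 5, 4 and 2 genes) and the single Krtap7, Krtap8, Krtap11 and Krtap21 genes were higher than adjuvant. In the Krtap4 group, Krtap4-6 (adjusted p = 0.0360) was lost in 4 of 8 fits without 1 array (highest 0.304, without adjuvant replicate 1), on the values as deposited (0.121) and with only the groups compared (0.0844), and Krtap4-2 in 3 fits (highest 0.0799, without CIA+MLIF replicate 1). Krtap7-1 read 6.25 and 6.43 on adjuvant, 5.81 and 5.80 on adjuvant+MLIF, 10.11 and 10.46 on CIA, and 11.91 and 12.13 on CIA+MLIF. It was 5.68 above adjuvant (95% interval 5.35 to 6.01, adjusted p = 3.70e-07) and 1.74 above CIA (1.41 to 2.07, adjusted p = 7.05e-05). Krtap8-1 read 6.43 and 6.55 on adjuvant, 9.58 and 9.67 on CIA, and 10.71 and 10.88 on CIA+MLIF, 1.17 above CIA (adjusted p = 0.000219).

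Krtap6-2 was the least even of these, with 8.22 and 9.62 on CIA and 10.53 on both CIA+MLIF arrays, 4.95 above adjuvant and 1.61 above CIA (adjusted p = 0.000108 and 0.0117). In contrast, 0 of 5 Krtap5 genes and 0 of 2 Krtap10 genes were called against adjuvant, with changes from -0.18 to 0.30, and all 7 were lower than in CIA with centring. Krtap5-2 changed by 0.30 from adjuvant (adjusted p = 0.433) and -2.24 from CIA, and Krtap15 by -0.01 (adjusted p = 0.997) and -1.62. Krtap genes are near copies of each other and some probes may read more than 1 of them, so single members are less certain than the groups.

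**Figure D3:**
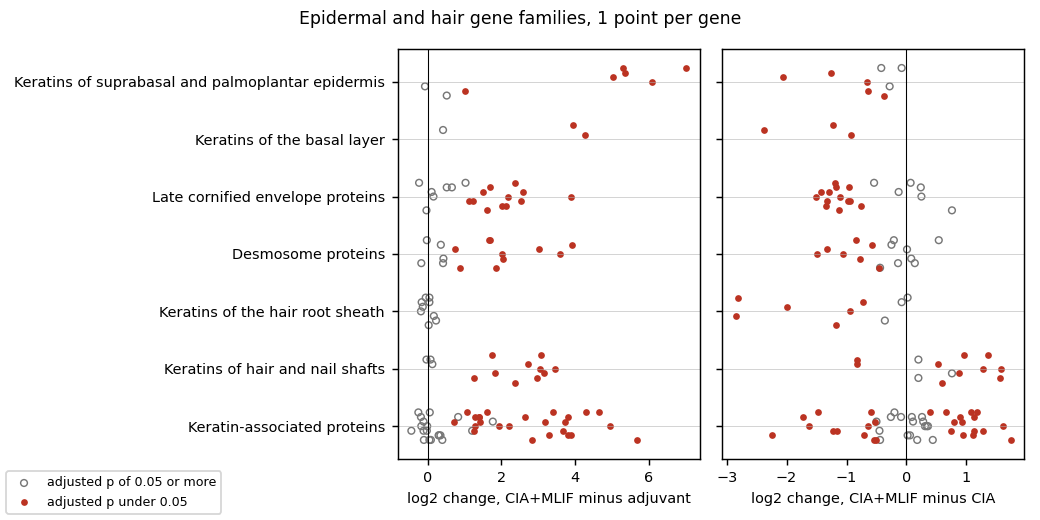
Log2 change of each measured gene of 7 families, from adjuvant (left) and from CIA (right), each between means of 2 arrays; filled points passed an adjusted p of 0.05. Most shaft keratins and many keratin-associated proteins lie to the right of 0 in both panels. Krt32 does so in neither (-0.03 and -0.82), and Krt82 only in the left one (0.13, and -0.83 in the right). The envelope and basal genes called in the left panel lie left of 0 in the right one. So do most such desmosome genes, but not Dsg4 (0.54) and Jup (0.01), both open points there. Root sheath keratins sit near 0 in the left panel.

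Keratins that appear in wounded or stressed skin were higher than adjuvant for 6 of 10 list members, gap junction genes included (4 without either CIA+MLIF array or without adjuvant replicate 2). Krt6b read 5.23 and 4.97 on adjuvant, 6.68 and 6.78 on CIA, and 8.70 and 7.73 on CIA+MLIF. It was 3.12 above adjuvant and 1.49 above CIA (adjusted p = 0.000316 and 0.00398). Krt16 and Krt6a were likewise above CIA, by 1.02 and 0.50 (adjusted p = 0.0111 and 0.0224), whereas Krt17 was 1.77 above adjuvant and at -1.40 from CIA (adjusted p = 0.00157 and 0.000921). These 4 keratins also occur in nails and hair follicles.

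Some enzymes of epidermal lipids were higher than adjuvant. Of 18 members of the sebaceous and epidermal lipid list, 5 were higher than adjuvant and none lower (median 0.13), and all 5 are genes of the horny layer's lipids. They were the very long chain fatty acid elongase Elovl4 (2.16), the lipoxygenases Alox12b and Aloxe3 (2.02 and 1.64), the lipid transporter Abca12 (1.63) and the ceramide synthase Cers3 (1.20). Elovl4 read 6.40 and 6.43 on adjuvant, 10.63 and 10.53 on CIA, and 8.59 and 8.56 on CIA+MLIF (adjusted p = 8.63e-06 against adjuvant), midway between the groups. Picked from outside the list after the values were seen, Acer1, Sdr9c7, Pnpla1, Nipal4 and Sult2b1, which act on ceramides or cholesterol of the horny layer or cause scaling skin disease when lost, were 2.24, 1.87, 1.06, 0.95 and 0.77 above adjuvant (adjusted p from 0.000114 to 0.0135). Of 22 tissue kallikreins, proteases some of which control shedding of the skin, 2 were higher than adjuvant. Klk7 was 1.09 above adjuvant and at -2.06 from CIA (adjusted p = 0.00315 and 1.69e-05), whereas Klk14 was 0.78 above adjuvant and 0.57 above CIA (adjusted p = 0.00833 and 0.00719; 0.230 against adjuvant on the values as deposited and 0.109 without adjuvant replicate 1). Of 13 Kazal inhibitors of proteases 3 were higher than adjuvant, Spink5 by 2.71, Spink12 by 2.08 and Spink6 by 1.65. Spink5 was lower than in CIA (-1.46, adjusted p = 0.000186), and Spink12 and Spink6 were 0.52 and 0.92 higher (adjusted p = 0.0344 and 0.00313).

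Among 18 regulators of epithelial identity, 8 were higher than adjuvant and none lower, or 5 on the values as deposited. Hoxc13, Tfap2b and Esrp2 did not pass there (adjusted p = 0.249, 0.116 and 0.114) nor without adjuvant replicate 2 (0.158, 0.0980 and 0.0555). The splicing regulator Esrp1 read 5.47 and 5.66 on adjuvant, 9.07 and 8.97 on CIA, and 7.96 and 7.99 on CIA+MLIF, a rise of 2.42 (adjusted p = 1.35e-05). The transcription factors Tfap2c and Grhl1 rose by 1.26 and 0.96 (adjusted p = 0.00107 and 0.00316). The calls of the regulators Tfap2a and Zfp750 depended on single arrays. Other genes of stratified epithelium, chosen after their values were seen, included the ubiquitin ligase Trim29 (3.40), galectin-7 (Lgals7, 2.66), metallothionein 4 (Mt4, 2.60), the glycerol channel Aqp3 (2.19) and histidase (Hal, 1.58). Of the clade B serpins, protease inhibitors of the cell interior, 5 of 24 were higher than adjuvant and none lower, with Serpinb5 3.46 higher. Of 9 epithelial growth factors 2 were higher, Ereg by 1.15 and Epgn by 0.98 (adjusted p = 0.00097 and 0.0405). The call of Epgn was lost in 7 of 8 fits without 1 array (highest adjusted p of 0.320 without adjuvant replicate 1), on the values as deposited (0.229) and with only the groups compared (0.0944). Calm4, a calmodulin-like protein of the epidermis, was 4.36 above adjuvant and at -1.10 from CIA (adjusted p = 1.25e-06 and 0.00105).

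In the interleukin 1 family 2 of 10 genes were higher than adjuvant, both of its epithelial branch. Il1f9 (interleukin 36 gamma, which keratinocytes release to alert immune cells) read 5.08 and 5.20 on adjuvant, 5.34 and 5.33 on adjuvant+MLIF, 8.56 and 8.35 on CIA, and 6.12 and 6.24 on CIA+MLIF. Its readings on adjuvant and CIA+MLIF lay below the control-entry medians of those arrays (6.34 and 6.24, and 6.32 and 6.30), where a signal has little meaning. It was 1.04 above adjuvant and at -2.28 from CIA (adjusted p = 0.00219 and 5.36e-06), and was the only call among 28 pro-inflammatory cytokines and receptors, whose median change was 0.04. Without either CIA array or without adjuvant replicate 2 that list had 2 calls. Il1f5, the antagonist of the same receptor, was 1.38 above adjuvant (adjusted p = 0.0039, and 0.0556 without adjuvant replicate 1). Il1b, Il6 and Tnf, the classic cytokines of arthritis, changed by -0.23, 0.27 and 0.14 from adjuvant, with 95% intervals of -0.69 to 0.23, -0.21 to 0.76 and -0.27 to 0.56. Il1b and Il6 were lower than in CIA (-1.85 and -1.15, adjusted p = 0.000307 and 0.00534), and Tnf was at -0.33 (adjusted p = 0.219).

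Some called genes are known mainly from other tissues or from inflammation. Metallothionein 2 (Mt2), which binds zinc and is induced in inflammation, read 10.11 and 10.26 on adjuvant, 10.40 and 10.44 on adjuvant+MLIF, 12.29 and 12.18 on CIA, and 11.11 and 11.32 on CIA+MLIF. It was 1.03 above adjuvant and at -1.02 from CIA (adjusted p = 0.00239 and 0.000405), the only call among 21 antioxidant and metallothionein genes. Tnfaip6 (TSG-6, an inflammation-induced matrix protein of connective tissue) was 0.85 above adjuvant and at -2.23 from CIA (adjusted p = 0.0381 and 2.74e-05). Arg1, an arginine-degrading enzyme, the platelet chemokine Ppbp and the plasma cell regulator Prdm1, called in lists of 20 macrophage, 36 chemokine and 18 B cell genes, were 0.61, 0.77 and 0.60 above adjuvant (adjusted p = 0.0205, 0.0274 and 0.0499). Each of these 3 calls was lost in 6 of 8 fits without 1 array, with highest adjusted p of 0.187 (without adjuvant replicate 2), 0.264 and 0.423 (both without adjuvant replicate 1), and none of them passed on the values as deposited (0.475, 0.110 and 0.707).

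The CIA and adjuvant+MLIF arrays, which entered the fit's variance but not the difference between CIA+MLIF and adjuvant, were also set against each other. Both CIA arrays were above both adjuvant+MLIF arrays for 255 of the 259 higher probe sets (98.5%), against 29.7% of all probe sets. The median level of the 259 was 6.05 in adjuvant, 6.07 in adjuvant+MLIF, 8.36 in CIA and 7.87 in CIA+MLIF. Their changes from adjuvant ran from 0.51 to 7.02 with a median of 1.52, and 189 were above 1. Over all probe sets, 215 differed by more than 1 between CIA+MLIF and adjuvant, 1896 between CIA and adjuvant, and 70 between adjuvant+MLIF and adjuvant.

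The falls were smaller, from -0.55 to -1.24. Ccr2, the receptor that draws monocytes out of the bone marrow, read 8.57 and 8.70 on adjuvant, 8.43 and 8.50 on adjuvant+MLIF, 8.78 and 8.86 on CIA, and 7.60 and 7.95 on CIA+MLIF. The CIA+MLIF arrays were the lowest of the 8, with a change of -0.86 from adjuvant (95% interval -1.16 to -0.55, adjusted p = 0.0153) and of -1.05 from CIA (adjusted p = 0.000757). The call against adjuvant was lost without CIA+MLIF replicate 1 and without either adjuvant array, with a highest adjusted p of 0.180 without adjuvant replicate 2, and on the values as deposited (0.172). Both CIA arrays were below both adjuvant+MLIF arrays for 117 of the 127 lower probe sets (92.1%), against 38.8% of all, but Ccr2 was not among them. Of the 127, 101 lie in 1 run of rows that repeat each other, and the 127 hold 55 distinct sets of 8 values. That share therefore counts the same signals more than once.

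Rtp4 and Xaf1, both induced by interferon, read 8.65 and 8.80, and 7.91 and 7.98, on adjuvant against 8.00 and 8.13, and 7.25 and 7.47, on CIA+MLIF. Their changes were -0.66 and -0.59 (adjusted p = 0.0193 and 0.0473), and CIA stood at the CIA+MLIF level (changes of -0.03 and 0.04 from CIA, adjusted p = 0.849 and 0.805). The call of Rtp4 was lost in 6 and that of Xaf1 in 5 of 8 fits without 1 array (highest adjusted p of 0.220 and 0.355, both without adjuvant replicate 2), and neither passed on the values as deposited (0.381 and 0.583). In the interferon list 0 of 21 members were called by limma against adjuvant, 8 had an unadjusted p under 0.05, and all 8 were lower. The list's median change was -0.22, with 19 of 21 below 0. Oasl2 and Oas2, of a family that senses viral RNA, changed by -0.54 and -0.39 from adjuvant (adjusted p = 0.129 and 0.288) and by -0.76 and -0.70 from adjuvant+MLIF (adjusted p = 0.0277 and 0.0193). Without CIA+MLIF replicate 2 the list had 2 calls against adjuvant, and without either CIA array 1.

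Filled in by smallest p, Fos, Stab2 and Phex changed by -0.49, -0.51 and -0.51 without passing (adjusted p = 0.0618, 0.0759 and 0.0995). Fos, an immediate-early transcription factor, read 8.68 and 8.73 on adjuvant, 7.12 and 7.06 on adjuvant+MLIF, 7.92 and 7.90 on CIA, and 8.20 and 8.23 on CIA+MLIF. The other 4 named genes with lower calls, outside the naming rule and picked after their values were seen, were Mitf, Trdn, Srsy and the microRNA gene Mir145a, with changes of -0.75, -0.61, -0.67 and -0.55 (adjusted p = 0.0146, 0.0416, 0.0239 and 0.0458). Srsy had 19 probe sets, all between -0.51 and -0.69, of which 2 were called. For Trdn, a calcium-release protein of muscle, the probe set that stood for the gene in its list was not called (-0.26, adjusted p = 0.887).

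Most lower calls had no gene symbol. Of the 127, 118 were unnamed and 101 lay in 1 run of 126 neighbouring rows of the table, none of which carries a symbol. The rows repeat each other: the 126 hold 47 distinct sets of 8 values, and the 127 lower calls hold 55, so the number of lower calls overstates the number of separate signals. The run's median level was 8.50 in adjuvant, 7.81 in adjuvant+MLIF, 5.42 in CIA and 7.52 in CIA+MLIF. Its median change was -0.93 from adjuvant, and 111 of the 126 were higher than in CIA. None was called against adjuvant+MLIF, where the median change was -0.24. The lower calls fell to 22 without adjuvant replicate 1, 52 without adjuvant replicate 2 and 58 without CIA+MLIF replicate 1.

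**Figure D4:**
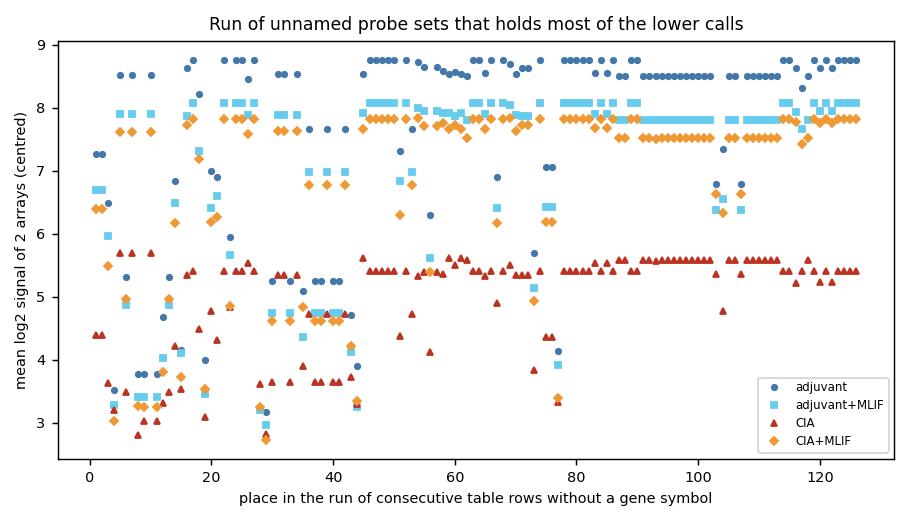
Mean log2 signal of the 2 arrays of each group (vertical axis) for 126 consecutive table rows without a gene symbol (horizontal axis, place in the run). Adjuvant lies highest, adjuvant+MLIF and CIA+MLIF below it, and CIA lowest over most of the run, and many rows repeat the same values.

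The lists of arthritis and of the deeper tissues had medians near the adjuvant level. Of 40 lists with 796 measured members, 30 had no call against adjuvant by limma, and their medians ran from -0.22 to 0.18. Over all probe sets 1.33% were called, so lists of this size would hold few or no calls in any case. Of their 595 members 61 (10.3%) had an unadjusted p under 0.05, 29 higher and 32 lower, against 7.56% of all probe sets. A miss does not show that a gene returned to its control level. The median half-width of the 95% interval was 0.25 to 0.33 in these lists. In simulated data, with independent noise of equal spread in all groups, 50 probe sets were changed at each size. The test recovered 2 at a change of 0.5, 39 at 1, 48 at 2 and 50 at 3.

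Neutrophil genes had a median change of 0.18 from adjuvant, with 17 of 22 above 0, 0 called and 5 with an unadjusted p under 0.05, and of -1.77 from CIA, where all 22 were lower (21 without centring). S100a8, an abundant neutrophil protein, read 8.16 and 8.59 on adjuvant, 9.40 and 9.35 on adjuvant+MLIF, 11.02 and 10.94 on CIA, and 8.39 and 8.81 on CIA+MLIF. Its change from adjuvant was 0.23 (95% interval -0.17 to 0.62, adjusted p = 0.856), and the arrays of both groups overlapped. Mpo, an enzyme of neutrophil granules, came nearest to a call in this list, at 0.47 (adjusted p = 0.0832).

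Matrix genes gave 0 calls in 25 matrix-degrading enzymes and inhibitors (1 with an unadjusted p under 0.05) and 0 in 25 collagens and interstitial matrix genes (3). 18 and 24 of them were lower than in CIA (12 and 19 without centring). The stromal protease Mmp3 read 8.69 and 8.79 on adjuvant, 11.09 and 10.97 on CIA, and 8.62 and 8.93 on CIA+MLIF, a change of 0.04 from adjuvant (95% interval -0.26 to 0.33). The collagenase Mmp13 read 10.05 and 10.07 on adjuvant, 12.80 and 12.50 on CIA, and 9.84 and 9.82 on CIA+MLIF, a change of -0.23 (-0.50 to 0.05, adjusted p = 0.738) and of -2.82 from CIA (adjusted p = 4.07e-06). Tnn, a tenascin, had the largest change among the collagens and matrix genes, 0.68 (adjusted p = 0.144, and 0.0448 after quantile normalization).

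No member of the osteoclast, osteoblast or sarcomere lists was called against adjuvant, where 1.33% of all probe sets were called. Among 19 osteoclast genes 0 were called and none had an unadjusted p under 0.05, while 14 were lower than in CIA. Ctsk, the protease with which osteoclasts dissolve bone collagen, read 9.65 and 9.92 on adjuvant, 12.20 and 11.94 on CIA, and 9.61 and 9.96 on CIA+MLIF. Of 14 osteoblast and osteocyte genes 0 were called, but 5 (35.7%) had an unadjusted p under 0.05, all 5 lower, and 1 was called without either CIA array. Omd, a matrix protein of bone, and Phex, an osteocyte peptidase, had the smallest p of that list (-0.49 and -0.51, adjusted p = 0.105 and 0.0995). In fast and shared sarcomere genes 0 of 20 were called, none had an unadjusted p under 0.05, and 18 lay below 0 with a median of -0.09, while 19 were higher than in CIA (median change 1.01). Myh2, a fast myosin, read 12.92 and 12.96 on adjuvant, 11.61 and 11.55 on CIA, and 12.72 and 12.96 on CIA+MLIF. Cell cycle genes had 0 of 25 calls and a median of -0.07, and 20 of 25 were lower than in CIA (8 without centring).

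**Figure D5:**
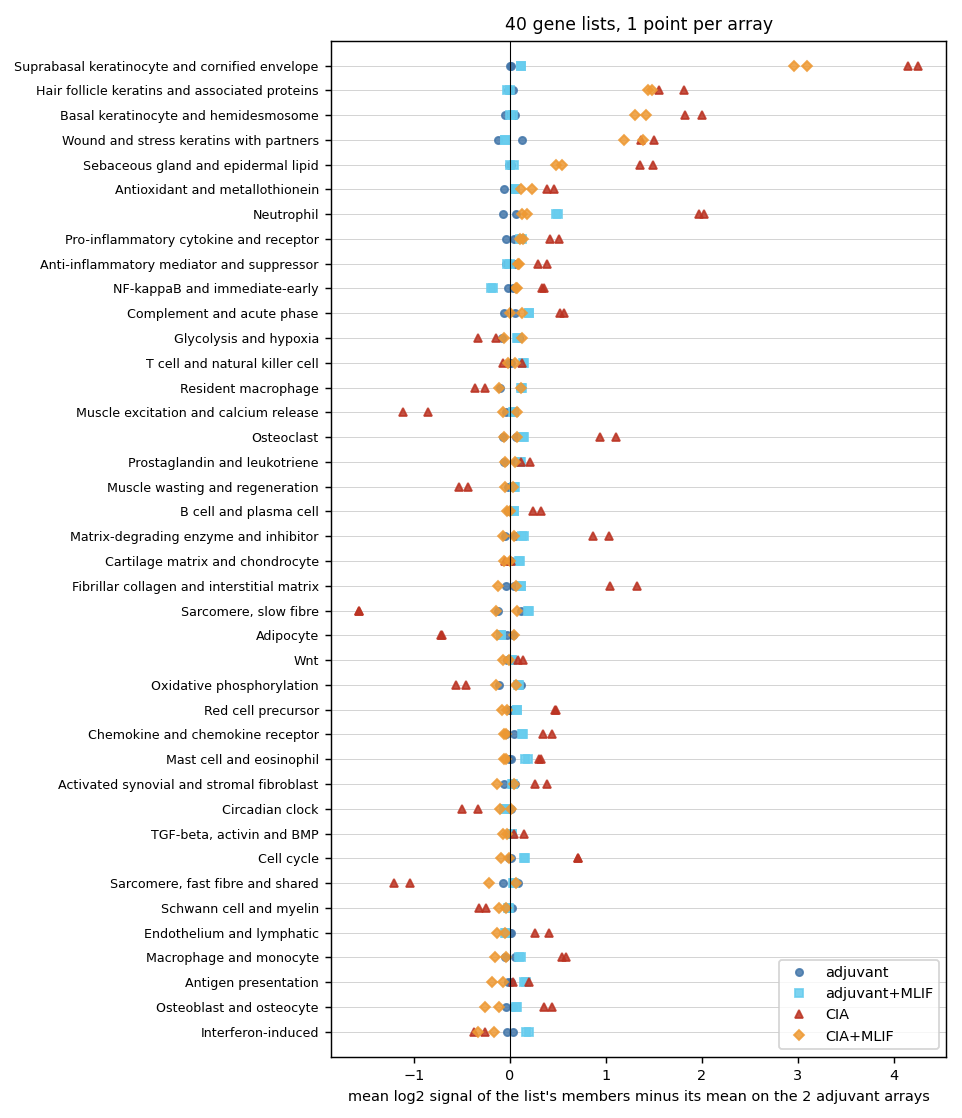
Mean log2 signal of each of 40 gene lists on each array, minus the list's mean on the 2 adjuvant arrays (horizontal axis, log2), with lists ordered by the CIA+MLIF mean. The 5 lists of epidermis, hair, wound keratins and skin lipids have both CIA+MLIF arrays above both adjuvant arrays by the widest margins, while in most other lists the CIA+MLIF points lie among the control points and the CIA points stand apart.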

How the data were processed

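Per the labels' protocols, 300 ng of RNA from each of 8 paw samples went onto an Affymetrix mouse whole-transcript array (Gene 1.0 ST). The deposited table holds log2 signals per probe set. The unit was read from the values, and the sources used here do not give the software or normalization behind them. Of 35557 entries, 6613 in the block of lowest IDs, ahead of the main probe sets of this array type, were taken as control entries and left out. Symbols came from the platform annotation: 21789 probe sets carry 1 (21766 found in RefSeq), 1621 several and 5534 none. Each array was centred on its median. limma 3.58.1 in R 4.3.3 fitted 4 group means to all 8 arrays (residual degrees of freedom 4, prior 4.63) with two-sided tests and Benjamini-Hochberg adjustment over 28944 probe sets.

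Named genes were the 12 largest rises and falls among called probe sets with 1 symbol, no overlap between arrays and a higher mean above the array median, filled to 6 by smallest p. Clone names, olfactory receptors, immune receptor segments and small RNAs (16 called probe sets) were passed over, and the probe set with the highest mean stood for a gene. Of each of 40 lists (865 members, 796 measured, some in more than 1 list) up to 4 members with the smallest p could be named, and any further gene named was picked once values were known. Members, lists and rules were chosen with earlier results of these data known. The labels do not tie replicate numbers to a shared animal or batch; replicate differences of adjuvant and CIA+MLIF correlated at 0.39 and those of CIA and CIA+MLIF at -0.11. Alternatives were the values as deposited, quantile normalization, a filter on low signal, averages per gene, array weights, a robust variance with a trend, only the groups compared, the adjuvant+MLIF arrays averaged, a replicate block, an adjusted p under 0.01 and each array left out; probe sets with 1 symbol and a crossed pairing were added after seeing the data. The fit was tested on simulated data of 28944 probe sets and made 7 false calls among those left unchanged. The simulated noise was independent and of equal spread in all groups, unlike these arrays, so that number does not give the error rate here. Figures were drawn with Matplotlib 3.10.9.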

Additional observations from a re-analysis of the deposited data

How the results depend on the processing

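None of the 118 called genes followed changed sign against adjuvant under the alternatives run. Against CIA, whether more calls were higher or lower depended on the scaling (3479 and 3505 with centring, 3315 and 942 as deposited). For CIA+MLIF against adjuvant (386 calls, 259 higher and 127 lower), the values as deposited gave 241 calls (42 lower), averaging per gene 243 (6 lower), only probe sets with 1 symbol 248 (9 lower), and an adjusted p under 0.01 gave 83 lower. Leaving out 1 array gave 204 to 452 calls (204 without adjuvant replicate 1, 239 without adjuvant replicate 2 and 242 without CIA+MLIF replicate 1), 182 to 288 higher and 22 to 164 lower. For CIA+MLIF against CIA (6984), the values as deposited gave 4257, array weights 3661, only the groups compared 3983, an adjusted p under 0.01 3494, and leaving out 1 array 4126 (without CIA+MLIF replicate 1) to 9938. For CIA+MLIF against adjuvant+MLIF (340), the values as deposited gave 211, array weights 569, averaging the adjuvant+MLIF arrays 179, an adjusted p under 0.01 212, and leaving out 1 array 175 to 435 (175 and 185 without either adjuvant+MLIF array, 202 without CIA+MLIF replicate 1). The causes were not tested. The higher calls stayed between 182 and 288 in every setting. A replicate block gave 376 (252 higher and 124 lower), 6772 and 288 calls in the order above. It ended the calls of Prdm1 and Xaf1 among the 118 genes. The crossed pairing of CIA numbers, added after seeing the data, gave 7757 calls against CIA. Of these 118 genes, 90 kept their call in all 8 fits without 1 array. Where 1 array of a group was left out, the other was assumed to vary like the remaining groups. Signals near the control entries limit the sizes of rises from the adjuvant level, and the direction too for genes that stay there in CIA+MLIF.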
